A study of Mus musculus with 9 samples.

Results

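Insulin-like growth factor 1 (IGF1) signals through a receptor tyrosine kinase to promote growth, survival and protein synthesis, and in heart muscle this pathway is known for driving enlargement of the cells. The insulin receptor is its close relative, the IGF2 receptor removes ligand by carrying it to lysosomes, and a family of secreted binding proteins holds the ligands in blood and matrix and sets how much of them reaches a receptor. Transcripts of 9 genes of this system were followed: the ligand Igf1, the receptors Igf1r, Insr and Igf2r, and the binding protein genes Igfbp3, Igfbp4, Igfbp5, Igfbp6 and Igfbp7. They were chosen by gene symbol from the 43154 genes listed for each heart. All 9 were found, and all 9 were among the 13487 genes that reached 1 FPKM (sequenced fragments relative to transcript length and library size) in at least 2 hearts and were tested.

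Messenger RNA was sequenced from 9 mouse hearts on the C57BL/6 background. The transgene encodes calcineurin A, a phosphatase switched on by calcium, and is driven by an MHC (myosin heavy chain) promoter, so that it acts in heart muscle cells. Transgenic mice were given vehicle (3 hearts, heart 1 at day 125 and hearts 2 and 3 at day 158) or JIB-04, an inhibitor of the Jumonji family of histone demethylases (2 hearts, heart 1 at day 125 and heart 2 at day 158). The dose was 50 mg/kg, given 3 times each week beginning when the mice were 4 weeks old. Wild type mice were given vehicle (4 hearts, hearts 1 and 2 at day 125 and hearts 3 and 4 at day 158). Days are the ages of the mice at collection. Wild type mice given JIB-04 were not analysed here. Each library is labelled with its own mouse number, so p-values measure the spread between these hearts.

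Read totals were not given in the sources used here. Judged by the size of the smallest steps between values, depth ranged from 1.0 to 1.5 relative to wild type heart 1. Across genes, which are not independent replicates, correlations between hearts of a group were 0.961 to 0.986. Ppp3ca, which encodes the catalytic α subunit of calcineurin, was listed at 1762, 1706 and 198.7 FPKM in transgenic vehicle hearts 1 to 3 and at 1536 and 1434 in the JIB-04 hearts, against 22.9 to 24.8 in wild type. Transgenic vehicle heart 3 therefore lay far below the other transgenic hearts. It stood apart in collagen transcripts as well, with Col3a1 at 14.1 FPKM against 90.1 to 120 in the other transgenic hearts and 33.0 to 45.7 in wild type. For each of the 9 genes, the comparisons with the transgenic vehicle group are given with and without it. The defining cardiomyocyte markers were high in every heart, at 13200 to 20500 summed FPKM over 8 genes.

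In transgenic hearts given vehicle, 6 of the 9 genes were higher than in wild type and none was lower. The ligand Igf1 rose 1.53-fold, its receptor Igf1r 1.81-fold and Insr 1.24-fold, and among the binding proteins Igfbp6 rose 4.03-fold, Igfbp7 2.46-fold and Igfbp4 1.38-fold, all on the log2(FPKM + 1) scale, which understates changes of genes at low levels. Igf2r, Igfbp3 and Igfbp5 did not pass the test. Over all genes tested, limma called 36% (20.3% higher and 15.7% lower). The median difference was 0.51 over the 9 genes and 0.05 over all genes tested, in log2 units. Scaling the hearts to equal summed FPKM moved the median of all genes from 0.05 to 0.23 (log2) and the share of called genes that were higher from 56.3% to 81.7%, and 7 of the 9 genes were then called, all of them higher, beside 40.7% of all genes. Without transgenic vehicle heart 3, 5 of the 9 were called, beside 37.4% of all genes. In the day 158 hearts alone (2 against 2) 2 were, Igf1r and Igfbp7, beside 9.33%.

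**Figure D1:**
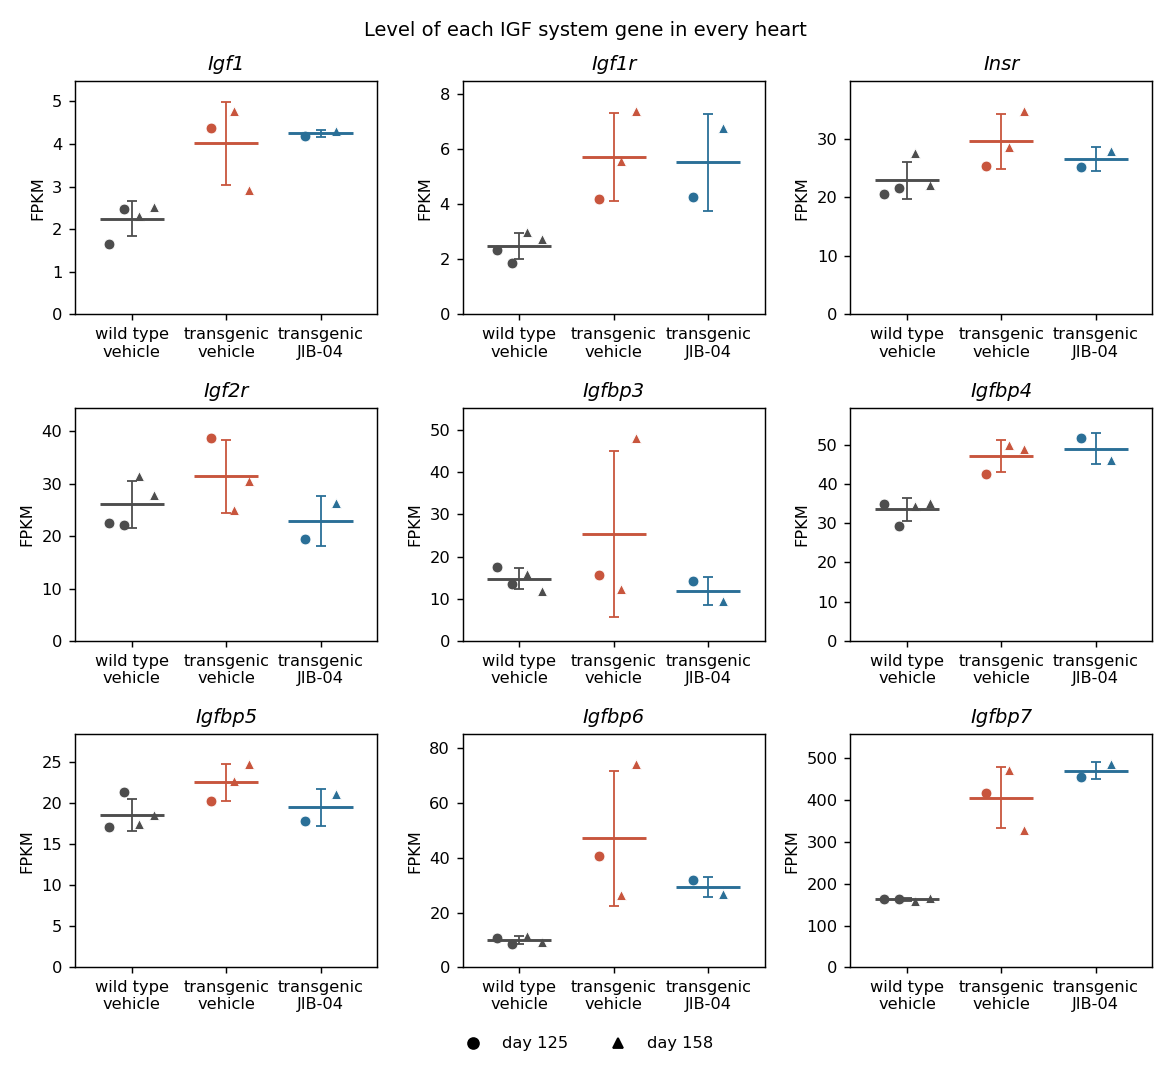
FPKM of each of the 9 genes (y axis) in wild type vehicle, transgenic vehicle and transgenic JIB-04 hearts. Circles are day 125 hearts and triangles day 158 hearts, horizontal lines are group means and bars are SD (n = 4, 3 and 2). For Igf1, Igf1r, Igfbp4, Igfbp6 and Igfbp7 each of the 5 transgenic hearts lies above each of the 4 wild type hearts, and for the other 4 genes the groups overlap.

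Calcineurin is known to act on genes through NFAT factors, whose core site was searched for only as GGAAAA. The stretches of 250 bases before the RefSeq transcript start (GRCm38.p6) were searched on both strands. The motifs were that core, which reads TTTTCC on the opposite strand, and the TATA box, searched for as TATAAA, which reads TTTATA on the opposite strand. By their letters the core and the TATA box cannot overlap. Of 32851 such stretches in the RefSeq table, 20.4% hold the first and 12.4% the second. The table matched 8 of the 9 genes (all but Insr). The stretches before 4 genes that rose in transgenic hearts are shown, 5′ to 3′ on the strand of the gene, because each of the 4 was called in 22 or 23 of 23 alternative fits. Capitals mark motif matches.
Igf1r, chr7:67952007-67952256, plus strand: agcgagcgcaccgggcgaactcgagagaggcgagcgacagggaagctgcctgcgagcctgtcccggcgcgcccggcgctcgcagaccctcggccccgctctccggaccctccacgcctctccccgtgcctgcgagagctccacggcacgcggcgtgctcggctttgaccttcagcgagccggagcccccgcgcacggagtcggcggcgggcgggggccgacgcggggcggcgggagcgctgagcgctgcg
Igfbp4, chr11:99040994-99041243, plus strand: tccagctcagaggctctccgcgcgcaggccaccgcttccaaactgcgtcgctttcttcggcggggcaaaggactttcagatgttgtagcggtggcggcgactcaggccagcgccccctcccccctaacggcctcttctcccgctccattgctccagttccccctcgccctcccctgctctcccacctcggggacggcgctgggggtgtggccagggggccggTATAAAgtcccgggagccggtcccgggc
Igfbp6, chr15:102143936-102144185, plus strand: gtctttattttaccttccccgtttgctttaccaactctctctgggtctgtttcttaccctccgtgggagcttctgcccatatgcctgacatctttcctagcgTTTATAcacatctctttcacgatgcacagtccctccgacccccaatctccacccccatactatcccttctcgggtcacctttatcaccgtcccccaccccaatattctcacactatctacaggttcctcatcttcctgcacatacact
Igfbp7, chr5:77408046-77408295, minus strand: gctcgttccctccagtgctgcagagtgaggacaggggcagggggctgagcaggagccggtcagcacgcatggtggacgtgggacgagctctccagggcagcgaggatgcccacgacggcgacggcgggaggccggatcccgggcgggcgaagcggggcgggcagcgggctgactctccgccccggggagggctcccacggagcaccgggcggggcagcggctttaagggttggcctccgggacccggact

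None of these 4 stretches holds GGAAAA on either strand. Shorter forms of the NFAT core were not searched for and can be present. Igfbp4 holds TATAAA beginning 28 bases before its start, and Igfbp6 holds TTTATA 148 bases before its start. CpG dinucleotides number 42 in the Igf1r stretch, more than in 99.1% of all stretches, 26 in Igfbp7, 22 in Igfbp4 and 7 in Igfbp6, against a median of 6. Of the other members matched, only Igf1 holds GGAAAA on either strand, once, 242 bases before its RefSeq start. That Igf1 stretch overlaps an exon of other Igf1 transcripts. A match describes these letters and is no evidence of binding, and its absence says nothing of a factor.

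Igf1 (chromosome 10, 87858265 to 87937042 in GRCm38), the ligand, was at 4.37, 4.76 and 2.92 FPKM in transgenic vehicle hearts 1 to 3 and at 1.66, 2.48, 2.32 and 2.53 in wild type hearts 1 to 4. The lowest transgenic heart, heart 3, lay just above the highest wild type heart, so the groups did not overlap. Their means were 4.02 ± 0.972 (SD, n = 3) and 2.25 ± 0.404 (SD, n = 4). The log2 difference was 0.61 ± 0.16 (SE), with a limma adjusted p of 0.020. The call was kept in 18 of 22 alternative fits. It was lost in the day 158 hearts alone (0.47, adjusted p = 0.23) and without transgenic vehicle heart 1 (0.50, adjusted p = 0.12). It was also lost without heart 2 (0.51, adjusted p = 0.060) and with no filter on low values (adjusted p = 0.064). Without heart 3 the difference was 0.79 (adjusted p = 0.0024). In heart extracts a higher level can come from more cells of a type or from more RNA per cell, and these cannot be told apart.

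Igf1r (chromosome 7, 67952859 to 68226780), the receptor kinase that IGF1 activates, was at 4.20, 5.59 and 7.37 FPKM in transgenic vehicle hearts and at 2.34, 1.88, 3.00 and 2.72 in wild type hearts. Every transgenic heart was above every wild type heart, and transgenic vehicle heart 3 was the highest. Igf1r differed by 0.86 ± 0.12 (SE) in log2 units (adjusted p = 0.00096). It was called in 23 of 23 alternative fits, with differences of 0.76 (without transgenic vehicle heart 3) to 1.07.

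Insr (chromosome 8, 3150922 to 3279617), the insulin receptor, was at 25.4, 28.6 and 34.6 FPKM in transgenic vehicle hearts. It was at 20.5, 21.5, 27.5 and 22.1 FPKM in wild type hearts, of which heart 3 lay above transgenic heart 1, so that the groups overlapped. The log2 difference was 0.31 ± 0.10 (SE), with an adjusted p of 0.043 that passed narrowly. The call held in 9 of 23 alternative fits, and was lost without transgenic vehicle heart 3 (0.23, adjusted p = 0.089) or heart 1 (0.35, adjusted p = 0.094). It was lost as well without either JIB-04 heart or without wild type heart 1, 2 or 4, with adjusted p of 0.066 to 0.13.

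The balance of the kinase receptors was compared through the ratio of Igf1r to Insr FPKM, a comparison that FPKM, being per length, allows. The ratio was 0.166, 0.196 and 0.213 in transgenic vehicle hearts and 0.114, 0.0872, 0.109 and 0.123 in wild type hearts. All transgenic hearts had the higher ratio, with means of 0.191 ± 0.0240 (SD, n = 3) and 0.109 ± 0.0154 (SD, n = 4). In JIB-04 hearts it was 0.171 and 0.242, also above wild type. Insr transcripts remained the more abundant of the pair in each heart.

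Igf2r (chromosome 17, 12682406 to 12769664), the clearance receptor for IGF2 and a carrier of lysosomal enzymes, was at 38.7, 24.9 and 30.6 FPKM in transgenic vehicle hearts and at 22.6, 22.2, 31.5 and 27.9 in wild type hearts. The groups overlapped. Igf2r differed by 0.23 in log2 units, with a 95% interval from -0.19 to 0.65 and an adjusted p of 0.35, and it turned to -0.10 without transgenic vehicle heart 1, while it was 0.26 without heart 3. Transgenic vehicle heart 1, the highest for Igf2r, was also the lowest for Airn, the antisense RNA of the Igf2r locus, at 2.14 FPKM against 7.36 to 15.3 in the other 8 hearts. Airn shares no exon with Igf2r, but the libraries do not keep strand, and the part of antisense reads in the Igf2r value was not tested.

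Among the binding proteins, Igfbp6 (chromosome 15, 102144362 to 102149511), which prefers IGF2 over IGF1, had the largest difference of the 9 genes. It was at 40.9, 26.3 and 74.1 FPKM in transgenic vehicle hearts and at 10.7, 8.53, 11.5 and 9.21 in wild type hearts. The lowest transgenic heart was well above the highest wild type heart, and the transgenic hearts differed widely among themselves, with heart 3 the highest. The log2 difference was 2.01 ± 0.30 (SE; adjusted p = 0.0017), and 1.63 without heart 3 (adjusted p = 0.00041). The call was lost in the day 158 hearts alone (2.003, adjusted p = 0.070).

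Igfbp7 (chromosome 5, 77349240 to 77408045), a secreted protein of vessel walls and matrix that binds IGFs only weakly, was the most abundant of the 9 in every heart. It was at 417, 472 and 328 FPKM in transgenic vehicle hearts and at 164, 163, 158 and 166 in wild type hearts. The wild type hearts lay close together and far below all transgenic hearts. The log2 difference was 1.30 ± 0.12 (SE; adjusted p = 0.00016), called in 23 of 23 alternative fits with differences of 1.18 to 1.52. Without transgenic vehicle heart 3, the lowest of its group, it was 1.44. Igfbp7 shares exon positions with Polr2b on the opposite strand, and libraries without strand cannot tell reads there apart.

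Igfbp4 (chromosome 11, 99041244 to 99054392), which binds IGFs until the protease encoded by Pappa cuts it, was at 42.5, 49.9 and 48.9 FPKM in transgenic vehicle hearts and at 35.0, 29.3, 34.5 and 35.2 in wild type hearts. The groups did not overlap. Igfbp4 rose by 0.47 ± 0.09 in log2 units (SE; adjusted p = 0.0062). The call was kept in 22 of 23 alternative fits, and without transgenic vehicle heart 3 the difference was 0.45. The exception was the day 158 hearts alone, at 0.49 (adjusted p = 0.056).

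Igfbp5 (chromosome 1, 72857932 to 72874884), a binding protein that attaches to matrix, was at 20.2, 22.6 and 24.7 FPKM in transgenic vehicle hearts and at 17.0, 21.3, 17.4 and 18.6 in wild type hearts. Wild type heart 2 lay among the transgenic hearts. Igfbp5 differed by 0.25 in log2 units, with a 95% interval from 0.0054 to 0.50 and an adjusted p of 0.10. It was called without wild type heart 2 (0.33, adjusted p = 0.023) and with hearts scaled to equal totals (0.46, adjusted p = 0.021). Without transgenic vehicle heart 3 it was 0.20 (adjusted p = 0.21).

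Igfbp3 (chromosome 11, 7206086 to 7213923), the main IGF carrier of blood, was at 15.6, 12.4 and 48.1 FPKM in transgenic vehicle hearts and at 17.6, 13.6, 15.96 and 11.9 in wild type hearts. Transgenic vehicle heart 3 alone was high, and hearts 1 and 2 lay within the wild type range. Igfbp3 differed by 0.51 in log2 units, with a 95% interval from -0.45 to 1.47 and an adjusted p of 0.38, and it was -0.06 without heart 3.

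**Figure D2:**
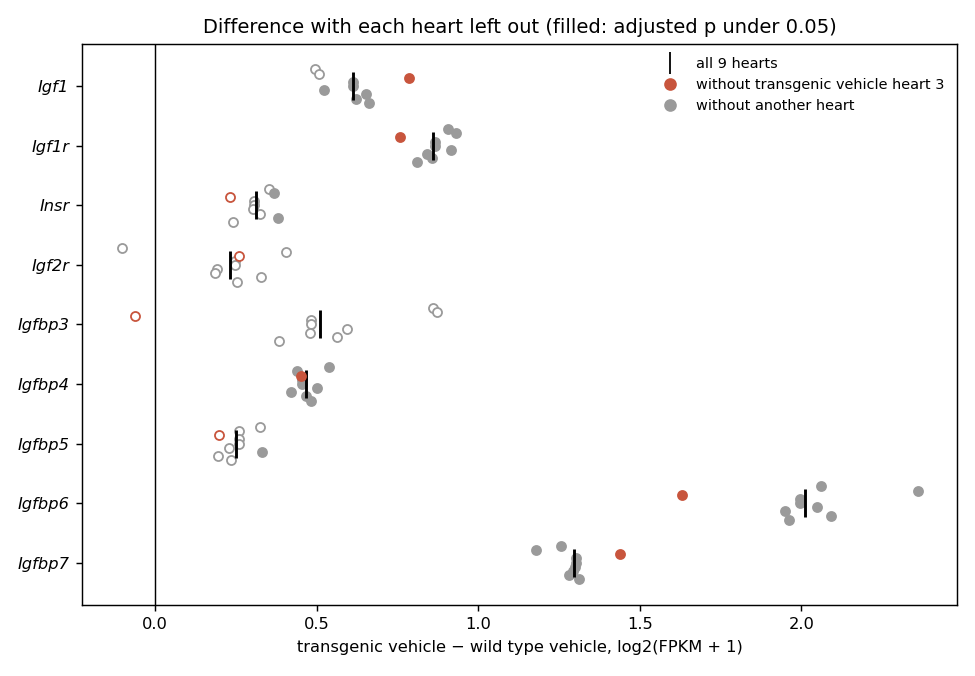
Difference of transgenic vehicle minus wild type vehicle in log2(FPKM + 1) (x axis) for each of the 9 genes, with all 9 hearts (black line) and with each heart left out in turn (dots, filled where the limma adjusted p was under 0.05). Igf1r, Igfbp4, Igfbp6 and Igfbp7 stay called with any 1 heart left out, while Igfbp3 moves from 0.51 to -0.06 without transgenic vehicle heart 3.

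Summed over the 5 binding protein genes, transcripts came to 536, 583 and 524 FPKM in transgenic vehicle hearts and to 245, 235, 237 and 241 in wild type hearts. Igfbp7 made up most of the sum, with 77.7%, 80.9% and 62.6% in transgenic vehicle hearts 1 to 3 and 66.6% to 69.1% in wild type hearts. Heart 3 thus lay below the wild type range and hearts 1 and 2 above it. Igfbp4 held a smaller share in transgenic vehicle hearts, 8.61% ± 0.706 (SD, n = 3) against 13.96% ± 1.03 (SD, n = 4), although its own level was higher there. Igfbp5 likewise held 4.12% ± 0.512 (SD, n = 3) against 7.76% ± 0.920 (SD, n = 4). The share of Igfbp6 was 7.62%, 4.51% and 14.1% in transgenic vehicle hearts and 3.63% to 4.84% in wild type hearts. Transgenic vehicle heart 2 lay within the wild type range for this share. The summed binding protein level stood at 142 ± 32.9 times the level of Igf1 in transgenic vehicle hearts (SD, n = 3) and at 110.0 ± 25.3 times in wild type hearts (SD, n = 4), and these ranges overlapped. No test was run on the shares and ratios.

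**Figure D3:**
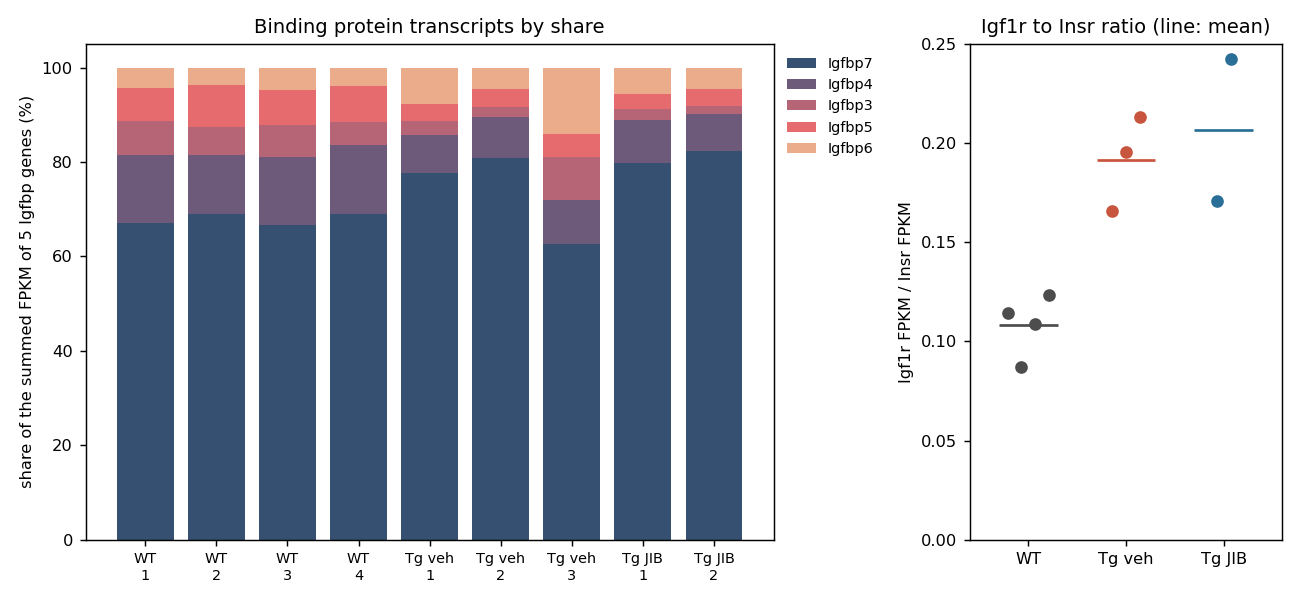
Left, share of the summed FPKM of 5 binding protein genes held by each (y axis, percent), 1 bar per heart (WT wild type vehicle, Tg veh transgenic vehicle, Tg JIB transgenic JIB-04). Right, ratio of Igf1r to Insr FPKM per heart, with lines at group means. Igfbp7 holds 62.6% to 82.4% of the sum in the 9 hearts, and the 5 transgenic hearts lie at ratios of 0.166 to 0.242 against 0.0872 to 0.123 in wild type.

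In wild type hearts the order of mean levels was Igfbp7, Igfbp4, Igf2r, Insr, Igfbp5, Igfbp3, Igfbp6, Igf1r and Igf1. Neighbours in this order overlapped between hearts, except that Igfbp7 was apart from Igfbp4, Igfbp3 from Igfbp6 and Igfbp6 from Igf1r. Against all genes tested, wild type Igfbp7 lay at the percentile 96.5 and Igf1 at 20.7. In transgenic vehicle hearts Igfbp6 stood in position 3 of the order, against 7 in wild type, and overlapped with Igfbp4 and Igf2r on either side. Igf1r and Igf1 remained the lowest pair in all 3 groups and overlapped with each other in each.

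JIB-04 was compared with vehicle within transgenic hearts (2 against 3). None of the 9 genes was called, with limma adjusted p of 0.99 for each and none at an unadjusted p under 0.05. Over all genes 0.00741% was called, which is 1 gene, and 444 of 13487 had an unadjusted p under 0.05. For all 9 genes the JIB-04 and vehicle hearts overlapped, where 12.4% of all genes tested did not. The intervals of the differences are wide for some of the genes, so a lack of calls does not show that the levels were alike.

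Igf1 was at 4.20 and 4.30 FPKM in JIB-04 hearts 1 and 2, both inside the vehicle range, with a log2 difference from vehicle of 0.09 (95% interval -0.35 to 0.53). Igf1r was at 4.28 and 6.77 FPKM, a difference of 0.03 (-0.29 to 0.34). Insr was at 25.1 and 27.9 FPKM, a difference of -0.10 (-0.38 to 0.17). In these 3 genes the day 125 heart was the lower of the JIB-04 pair. Without transgenic vehicle heart 3 the differences were -0.084 for Igf1, 0.13 for Igf1r and -0.024 for Insr.

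Igf2r was at 19.5 and 26.3 FPKM in JIB-04 hearts, of which heart 1 was the lowest of the 9 hearts, with a difference of -0.41 (95% interval -0.91 to 0.09). This Igf2r difference was -0.07 without transgenic vehicle heart 1 and -0.44 without heart 3. Igfbp3 was at 14.1 and 9.49 FPKM, and its difference of -0.82 (-1.97 to 0.33) came to -0.25 without transgenic vehicle heart 3. Igfbp6 was at 31.9 and 26.8 FPKM, a difference of -0.54 (-1.37 to 0.29), and of -0.16 without that heart. Both JIB-04 hearts were inside the vehicle range for Igfbp6 and far above wild type.

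Igfbp7 was at 456 and 485 FPKM in JIB-04 hearts, with a difference of 0.23 (95% interval -0.10 to 0.55). Igfbp4 was at 51.7 and 46.1 FPKM, a difference of 0.07 (-0.19 to 0.32). Igfbp5 was at 17.8 and 21.1 FPKM, a difference of -0.19 (-0.48 to 0.11). JIB-04 heart 2 held the highest Igfbp7 level and heart 1 the highest Igfbp4 level of the 9 hearts. Without transgenic vehicle heart 3, the lowest of its group for Igfbp7, the differences were 0.085 for Igfbp7, 0.082 for Igfbp4 and -0.14 for Igfbp5.

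JIB-04 hearts were also set against wild type. The same wild type hearts served the comparison with transgenic vehicle, and the same JIB-04 hearts that of JIB-04 with vehicle. For JIB-04 against wild type, 5 of the 9 genes were called, all higher, beside 32.3% of all genes (17.4% higher and 14.8% lower). Igfbp7 rose by 1.52 ± 0.13 (SE; adjusted p = 0.00015), Igfbp6 by 1.47 ± 0.34 (adjusted p = 0.013) and Igf1r by 0.89 ± 0.13 (adjusted p = 0.0016) in log2 units. Igf1 rose by 0.70 ± 0.18 (SE; adjusted p = 0.020) and Igfbp4 by 0.53 ± 0.10 (adjusted p = 0.0063). Insr differed by 0.21 with an adjusted p of 0.20, and Igf2r, Igfbp3 and Igfbp5 were at -0.18, -0.31 and 0.06 with adjusted p of 0.54, 0.65 and 0.72. With JIB-04 heart 1 left out the calls of Igf1, Igfbp4 and Igfbp6 were lost (adjusted p = 0.13, 0.088 and 0.12), and with JIB-04 heart 2 left out those of Igf1 and Igfbp6 (adjusted p = 0.13 and 0.072). Each of these fits leaves 1 JIB-04 heart, which is assumed to vary like the hearts of the other groups.

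**Figure D4:**
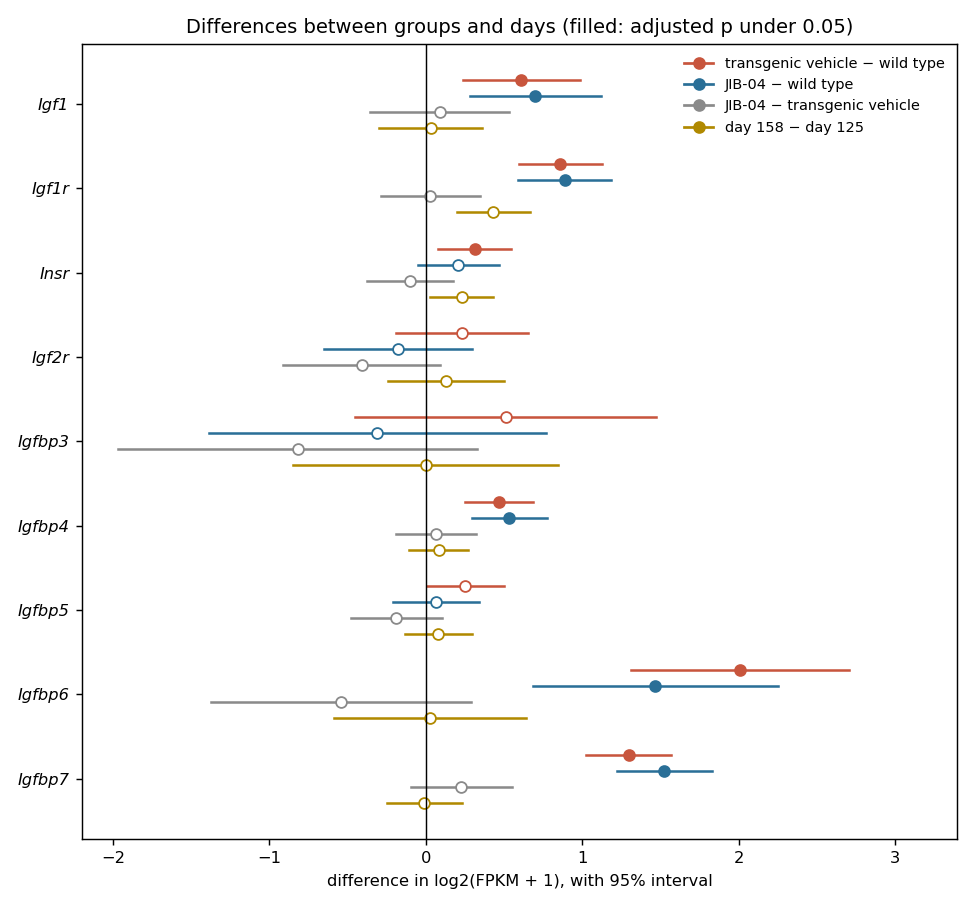
Differences in log2(FPKM + 1) (x axis) with 95% intervals from limma for each of the 9 genes, for 3 comparisons of groups and for day 158 minus day 125. Filled points had an adjusted p under 0.05. The differences of JIB-04 from vehicle and between days hold no filled point, and for Igf1, Igf1r, Igfbp4, Igfbp6 and Igfbp7 both comparisons with wild type are filled.

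Taking all 5 transgenic hearts against all 4 wild type hearts, 5 of the 9 genes (Igf1, Igf1r, Igfbp4, Igfbp6 and Igfbp7) had every transgenic heart above every wild type heart. Of all genes tested 20.4% did so. For transgenic vehicle hearts alone these 5 genes were apart from wild type, beside 23.4% of all genes higher without overlap.

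The day of collection was tested with the groups held fixed. None of the 9 genes was called, beside 0.378% of all genes (51 of 13487), and 2 of the 9 had an unadjusted p under 0.05. Igf1r was higher at day 158 by 0.43 ± 0.10 (SE) in log2 units, with an unadjusted p of 0.0027 and an adjusted p of 0.086. In each group the day 158 hearts had more Igf1r than the day 125 hearts, at 3.00 and 2.72 against 2.34 and 1.88 FPKM in wild type, 5.59 and 7.37 against 4.20 in transgenic vehicle and 6.77 against 4.28 in JIB-04 hearts. Insr showed the same order within each group, with a difference of 0.23 ± 0.09 (SE; unadjusted p = 0.033, adjusted p = 0.22). The other 7 genes differed by -0.01 to 0.13. Mice of each day carry their own run of mouse numbers. Age therefore cannot be told apart from other differences between these sets of mice.

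Whether the effect of the transgene or of JIB-04 differed between days was tested by interaction terms, which rest on 3 residual degrees of freedom. Of all genes 0.00741% was called for the transgene and 0% for JIB-04 (405 genes at an unadjusted p under 0.05), and none of the 9 genes in either. Igf2r came nearest. In transgenic vehicle hearts it was at 38.7 FPKM at day 125 and at 24.9 and 30.6 at day 158, while in wild type it was at 22.6 and 22.2 and at 31.5 and 27.9. The difference of transgenic vehicle minus wild type changed by -0.86 ± 0.21 (SE) in log2 units from day 125 to day 158 (unadjusted p = 0.0063, adjusted p = 1.0). That of JIB-04 minus vehicle changed by 0.89 ± 0.24 (unadjusted p = 0.012, adjusted p = 1.0), JIB-04 being lower at day 125 (19.5 against 38.7 FPKM) and inside the vehicle range at day 158 (26.3 FPKM). Both changes rest on the same single transgenic vehicle heart of day 125, and the second also on 1 JIB-04 heart at each day.

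The rest of the IGF system was described from lists of related genes. Their counts for transgenic vehicle hearts stand beside 20.3% higher and 15.7% lower of all genes. Of 9 other IGF family genes 3 were tested and 2 of them were lower in transgenic vehicle hearts. Igf2, the fetal growth ligand, was at 4.71, 3.01 and 4.37 FPKM in transgenic vehicle hearts and 12.1, 11.1, 7.79 and 8.49 in wild type hearts, with no overlap. Igf2 fell by 1.04 in log2 units (SE 0.11; adjusted p = 0.00032). Igfals, which encodes the acid-labile subunit of the circulating IGF complex, fell from 2.69 ± 0.429 (SD, n = 4) to 0.602 ± 0.168 FPKM (SD, n = 3), with an adjusted p of 0.00037. Igfals was under 1 FPKM in each transgenic heart and entered the test only through its wild type level, so that a difference was built into its selection. In JIB-04 hearts Igf2 was at 4.30 ± 0.879 FPKM (SD, n = 2) and Igfals at 0.221 ± 0.0173 (SD, n = 2). Igfbp1, a liver-made binding protein, was listed at 0 in every heart.

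The ligands therefore differed in opposite directions, Igf1 being higher and Igf2 lower in transgenic hearts. The ratio of Igf2 to Igf1 was 3.36 to 7.28 in the 4 wild type hearts, 0.632 to 1.498 in the transgenic vehicle hearts and 0.855 to 1.17 in the JIB-04 hearts. Igf2 shares exon positions with the antisense gene Igf2os and with Gm49394, and its level is uncertain to that extent.

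Of 10 genes for the cleavage of binding proteins and its control, 7 were tested, with 1 called higher and 1 lower. Htra1, a secreted serine protease, was at 22.5, 19.1 and 13.5 FPKM in transgenic vehicle hearts and 67.4, 64.9, 52.8 and 67.7 in wild type hearts. It fell by 1.70 ± 0.14 in log2 units (SE; adjusted p = 0.00010), with no overlap between groups. Mmp2, a matrix metalloproteinase, rose from 18.0 ± 1.64 (SD, n = 4) to 30.2 ± 3.04 FPKM (SD, n = 3; adjusted p = 0.00041).

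All 8 growth hormone axis genes were tested, with 1 higher and 3 lower. Ghr, the growth hormone receptor, was at 33.0, 37.0 and 31.4 FPKM in transgenic vehicle hearts and 55.0 to 61.1 in wild type hearts, a log2 difference of -0.77 ± 0.08 (SE; adjusted p = 0.00028). The transcription factors that act after this receptor were lower as well, Stat5b by -0.72 ± 0.07 (adjusted p = 0.00017) and Stat5a by -0.60 ± 0.14 (adjusted p = 0.013). The call of Stat5a was kept in 21 of 23 alternative fits, and its adjusted p was highest with hearts scaled to equal totals (0.097). Stat5a shares exon positions with Stat3 on the opposite strand. Socs3, a feedback inhibitor of cytokine receptors, was higher by 0.80 ± 0.13 (adjusted p = 0.0021). Igf1, which growth hormone is known to induce in liver, was thus higher in hearts in which Ghr, Stat5a and Stat5b were lower.

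Of 41 insulin and IGF receptor signalling genes 40 were tested, with 11 higher and 4 lower, beside the 20.3% higher and 15.7% lower of all genes. Their median difference was 0.11. Irs1, the adaptor that carries the signal from both kinase receptors to phosphoinositide 3-kinase, was at 14.02, 15.7 and 10.03 FPKM in transgenic vehicle hearts and 1.603, 2.12, 3.03 and 2.75 in wild type hearts. Irs1 rose by 2.02 ± 0.19 in log2 units (SE; adjusted p = 0.00018), and all transgenic hearts were above all wild type hearts. The related adaptor Irs2 was higher by 0.98 ± 0.33 (adjusted p = 0.047), a call kept in 6 of 23 alternative fits. Leaving out each heart in turn gave Irs2 differences of 0.65 (without wild type heart 4) to 1.39 (without transgenic vehicle heart 1), and wild type heart 1, at 9.39 FPKM, lay above transgenic vehicle heart 1, at 8.95. Irs1 shares exon positions with Gm9747 and Irs2 with 9530052E02Rik, both on the opposite strand, and reads there cannot be told apart. The phosphatase gene Ptpn11 was higher by 0.65 ± 0.20 (adjusted p = 0.035), a call kept in 13 of 23, and by 0.41 without transgenic vehicle heart 3 (adjusted p = 0.032). Calls of Ptpn11 were lost without transgenic vehicle heart 1, either JIB-04 heart, or wild type heart 2, 3 or 4 (adjusted p of 0.052 to 0.10). On the lower side, Slc2a4, the insulin-responsive glucose transporter, went from 204 ± 8.30 (SD, n = 4) to 111 ± 12.6 FPKM (SD, n = 3; adjusted p = 0.00029). The kinase genes Akt2 and Akt1 differed by -0.65 ± 0.07 (adjusted p = 0.00032) and -0.64 ± 0.16 (adjusted p = 0.015). The call of Akt1 was kept in 20 of 23 alternative fits, with limma adjusted p of up to 0.25. Among the fits that lost it was that without transgenic vehicle heart 1 (-0.50, adjusted p = 0.098).

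In JIB-04 hearts against wild type the lists gave 0 higher and 2 lower of 3 family genes, 1 and 1 of 7 proteolysis genes, 1 and 3 of 8 growth hormone axis genes and 6 and 6 of 40 signalling genes. Of all genes 17.4% were higher and 14.8% lower in this comparison. Irs1 was higher there by 2.15 ± 0.21 (SE; adjusted p = 0.00028) and Ghr lower by -0.86 ± 0.09 (adjusted p = 0.00035). Against vehicle, no gene of these 4 lists was called for JIB-04 in transgenic hearts.

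**Figure D5:**
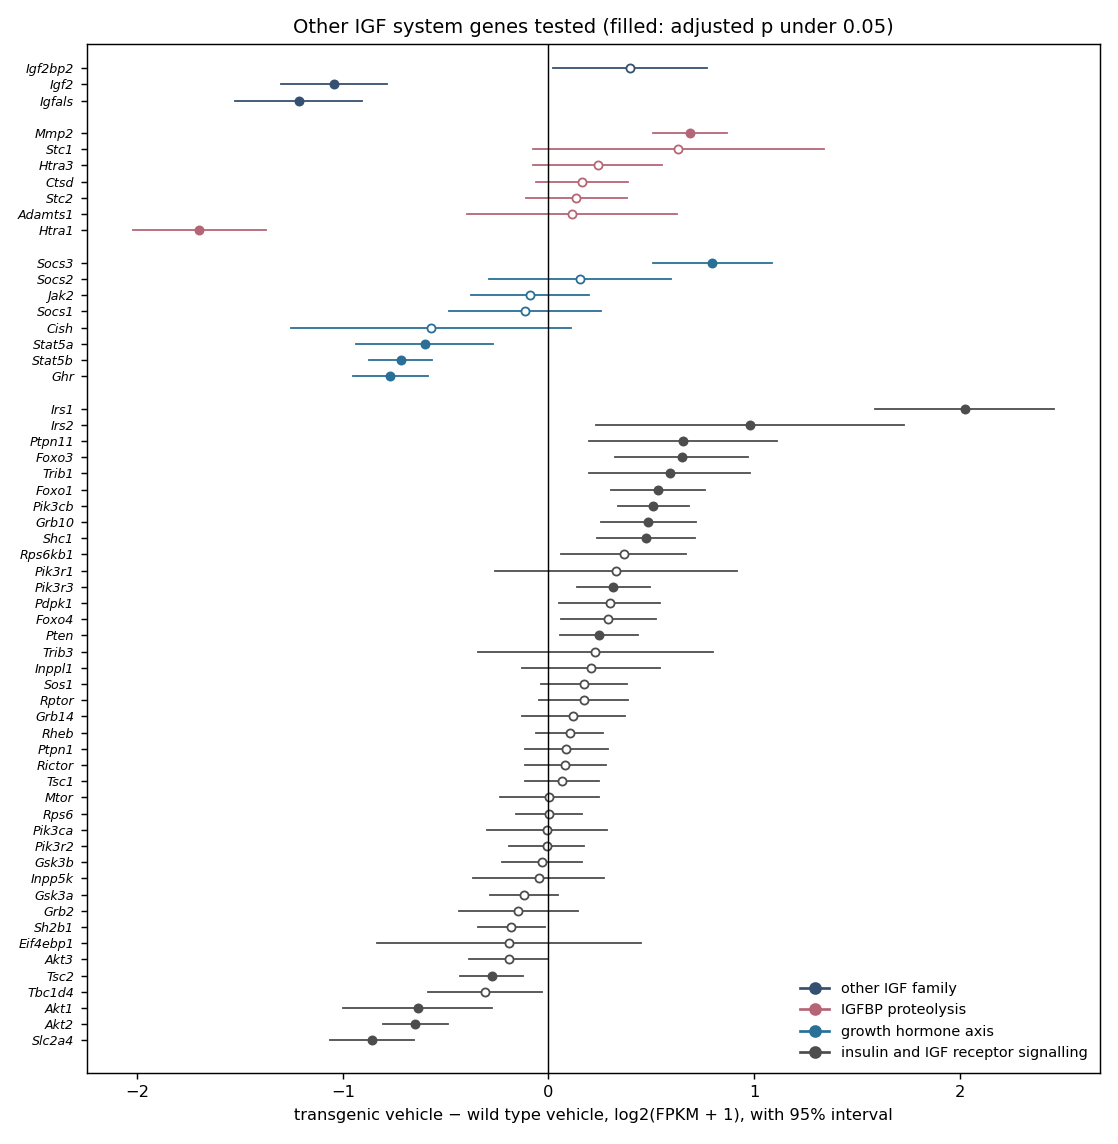
Difference of transgenic vehicle minus wild type vehicle in log2(FPKM + 1) (x axis) with 95% intervals from limma, for the tested genes of 4 lists of related genes, by list and size. Filled points had an adjusted p under 0.05. Irs1 lies farthest to the right at 2.02 and Htra1 farthest to the left at -1.70.

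Markers of some heart cell types differed between these groups. Over all genes tested, 20.3% were called higher and 15.7% lower in transgenic vehicle hearts than in wild type. Of 12 fibroblast markers 7 were called higher in transgenic vehicle hearts and none lower. The 12 summed to 1300 to 1540 FPKM there, 1350 to 1450 in JIB-04 hearts and 697 to 899 in wild type hearts. The largest parts of the sum were Gsn and Dcn, at means of 614 and 402 FPKM in transgenic vehicle hearts. For Col3a1, Col1a1, Lum, Cd248 and Dpt the lowest transgenic vehicle heart (14.1, 9.67, 21.05, 2.945 and 38.4 FPKM) lay below all wild type hearts. Endothelial markers were lower in 7 of 10, at 349 to 524 FPKM in transgenic vehicle, 306 to 347 in JIB-04 and 508 to 624 in wild type hearts. Cardiomyocyte markers were lower in 4 of 8, at 13200 to 15800, 13600 to 15100 and 17200 to 20500 FPKM in the same order. Of 9 smooth muscle and pericyte markers 2 were higher and 5 lower, at 202 to 230, 199 to 219 and 349 to 399 FPKM. Cnn1, 1 of the 2 higher, was under 1 FPKM in each wild type heart (0.309 to 0.553). It entered the test only through transgenic hearts, so that a difference was built into its selection. Of 9 macrophage markers 8 were tested and none was called (1 at an unadjusted p under 0.05), and the 9 summed to 192 to 245, 194 to 221 and 168 to 230 FPKM. The 6 lymphocyte markers summed to 2.85 FPKM or less in each heart and were not tested. IGF binding proteins are known products of stromal and vascular cells, and the part of these markers in the levels of Igfbp4, Igfbp6, Igfbp7 and Igf1 was not tested.

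For each called gene the 3 genes most like it were taken, by the mean absolute difference in log2(FPKM + 1) over the 9 hearts after centring each gene on its own mean. Igf1 was nearest to Twsg1, Kpna2 and Dapp1 (0.042, 0.0748 and 0.0749, where the median over all genes was 0.356). Igf1r was nearest to Synm (0.0925, median 0.461), another gene of chromosome 7, then to Samd4 and Creb3l2. Insr was nearest to Prdm4, Golga2 and Hgs (0.0479 to 0.0553, median 0.248). Igfbp4 was nearest to Klhdc8b, Actn2 and Dse (0.0429 to 0.0569, median 0.278). Igfbp7 was nearest to Actn4, Alx4 and Drp2 (0.0573 to 0.0666, median 0.675), and Igfbp6 to Rbp4, Atg13 and Gm15743 (0.157 to 0.208, median 0.87). Alx4 and Drp2 each averaged only 1.03 FPKM over the 9 hearts. At such levels log2(FPKM + 1) understates changes, so their nearness to Igfbp7 does not show a like fold. The same limit holds for other pairs of unlike level, such as the low Igf1 beside Twsg1 and Kpna2. Twsg1 and Kpna2 averaged 34.1 and 36.4 FPKM. The mean absolute differences describe 9 hearts that share groups and days, and carry no test.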

How the data were processed

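RNA was extracted from hearts with Trizol and sequenced from libraries that do not keep strand, per the labels' protocols. Per the file headers, the authors deposited 1 file of log2 values of FPKM per heart. STAR 2.7.1a, Picard, GATK 4.1.2, Cufflinks 2.2.1 and GRCm38 are named per the submitters' processing notes. The role of each tool and the release of the annotation were not given in the sources used here. No source states which constant preceded the logarithm. Since each file's minimum is exactly 0, a constant of 1 was assumed in returning to FPKM. In the series text dosing ran to day 158, but 4 hearts carry day 125 in their labels, which were followed. The number of value columns that matched no sample was 0.

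A filter of 1 FPKM in 2 or more hearts left 13487 of 43154 genes, which were fitted on log2(FPKM + 1), a pseudocount of 1, with limma 3.58.1 in R 4.3.3, using a mean per group, a term for day and an intensity trend in all 9 hearts, with 5 residual and 3.07 prior degrees of freedom. Two-sided p-values were adjusted for all genes tested by the Benjamini-Hochberg method (threshold 0.05), and intervals cover 95%. Interaction terms were fitted with 1 mean for each of the 6 pairs of group and day. The fit was tested on simulated data. The 9 genes and the gene lists were chosen with earlier results of these data known. All 9 genes are named, with Ppp3ca, up to 3 called genes in each direction from each list of related genes, and the 3 genes most like each called member. Col3a1, Airn and Cish were named after their values were seen, as were the other cell type markers named singly. Alternatives were pseudocounts of 0.1 and 0.5, no filter or 5 FPKM, 4 other scalings, no day term, a block for replicate number, variance fitted robustly or untrended, a fit of the compared groups alone, day 158 hearts only, and each heart left out. Promoter stretches come from RefSeq (GRCm38.p6), exon overlaps from GENCODE M21. Depth is known only relative to wild type heart 1, so no counting intervals are given.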

Additional observations from a re-analysis of the deposited data

Results flagged for a closer look

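Of 32 values tested in the 4 wild type hearts, 4 had a single heart far from the other 3, and chance gives about 1 in 20. Igfbp4 was lowest in wild type heart 2, at 4.92 in log2(FPKM + 1) against 5.15 in the nearest heart, and its share of the summed binding protein FPKM was lowest in the same heart, at 12.4% against 14.3%. Htra1 was lowest in wild type heart 3, at 5.75 against 6.04 in log2(FPKM + 1). The ratio of summed binding proteins to Igf1 was highest in wild type heart 1, at 148 against 102 in the nearest heart.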

How the results depend on the processing

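For transgenic vehicle against wild type, 2 members and 1217 genes were called in the day 158 hearts alone, where Igf2r was -0.0995. Leaving out each heart in turn, Igf2r ranged from -0.10 to 0.40 and Igfbp3 from -0.063 to 0.87. For JIB-04 against vehicle, the genes called numbered 0 with a pseudocount of 0.1, a filter of 5 FPKM or day 158 hearts only, 6 with no filter, 2 with untrended variance, and 0 to 3 with a heart left out. Igf1r was -0.0209 with equal totals and -0.043 with no day term, and Igfbp4 was -0.0985 at day 158. With a heart left out Igf1 ranged from -0.084 to 0.205, Igf1r from -0.058 to 0.129 and Igfbp4 from -0.080 to 0.239. For JIB-04 hearts against wild type, the day 158 hearts gave 651 genes and 1 member, no filter gave 3 members, and a heart left out gave 1720 to 5322 genes, 2 to 5 members, Igf2r from -0.36 to 0.0058, Igfbp3 from -0.65 to 0.031 and Igfbp5 from -0.034 to 0.16. Between days, 23 genes were called with no filter, 185 with equal totals without mitochondrial and the 20 highest genes, and 9 to 287 with a heart left out. With equal totals Igf1 was -0.032 and Igfbp6 -0.047. Igfbp3 was 0.029 by median of ratios, 0.099 without the highest genes and 0.020 by quantiles, and Igfbp7 was 0.022, 0.097 and 0.12. With a heart left out Igf1 ranged from -0.066 to 0.12, Igfbp3 from -0.29 to 0.18, Igfbp6 from -0.17 to 0.20 and Igfbp7 from -0.0695 to 0.061. For the transgene effect between days, 0 genes were called with a pseudocount of 0.1 or a filter of 5 FPKM, 186 with no filter, 6 with equal totals, 3 with untrended variance and 0 to 17 with a heart left out. Equal totals, with all genes and then without the highest, gave -0.043 and -0.029 for Insr, -0.031 and -0.015 for Igfbp4, and -0.11 and -0.084 for Igfbp6, which was -0.031 by median of ratios and -0.019 by quantiles. Left-out hearts gave Insr -0.074 to 0.232, Igfbp3 -0.15 to 1.72, Igfbp4 -0.0305 to 0.2185, Igfbp6 -0.71 to 0.75 and Igfbp7 -0.33 to 0.19. For the JIB-04 effect between days, 540 genes were called with no filter and 0 to 1 with a heart left out. Insr was 0.018 without the highest genes. Left-out hearts gave Igf1 -0.074 to 0.483, Igf1r -0.131 to 0.214, Igfbp5 -0.044 to 0.076, Igfbp6 -1.09 to 0.37 and Igfbp7 -0.091 to 0.43. The cause of these shifts was not tested, and fewer hearts or other genes enter some fits by construction.

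Deviations from group means correlated at -0.186 to 0.432 between same-numbered hearts of different groups. These values cannot settle whether replicate numbers pair the hearts. The 2 JIB-04 hearts deviate from their mean by equal and opposite amounts, and the numbers are mixed with day. With the number as a block, 6, 0 and 5 members and 4079, 1 and 3416 genes were called in the 3 comparisons of groups.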

Other observations

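Cish, a feedback inhibitor of growth hormone and cytokine receptors that STAT5 induces, had the widest difference between JIB-04 and vehicle hearts among the 8 growth hormone axis genes and was picked after its values were seen. It was at 12.2, 12.4 and 30.4 FPKM in transgenic vehicle hearts 1 to 3, at 4.72 and 8.59 in the JIB-04 hearts and at 23.7, 24.0, 29.6 and 20.1 in wild type hearts. Both JIB-04 hearts lay below all 7 other hearts, and transgenic vehicle heart 3 was higher than any wild type heart. Between JIB-04 and transgenic vehicle hearts, 12.4% of all genes tested did not overlap, in either direction. The log2 difference of Cish between JIB-04 and vehicle was -1.19 ± 0.35 (SE), with an unadjusted p of 0.0095 and a limma adjusted p of 0.99. Without transgenic vehicle heart 3 it was -0.84.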
